A study of Mus musculus with 2 samples.

Results

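The myosin light chain genes examined were Myl1, Myl2, Myl3, Myl4, Myl6, Myl7 and Myl9, which are 7 of the 21911 protein-coding genes of GENCODE vM21 on chromosomes 1 to 19, X and Y. They were taken by name, as a gene family and not by a threshold on a value, and located on the mouse genome build mm10. Chromatin accessibility was measured by DNase-seq, in which nuclei are digested with DNase I and the ends of the released fragments are sequenced, so that sites of frequent cutting mark open DNA. The tissue was the heart of newborn mice of strain B6NCrl at postnatal day 0, with no genetic change and no treatment named in the labels. There was 1 group of 2 libraries, labelled biological replicates 1 and 2, with separate biosample labels, the same donor label and sex not collected, so that each SD given is that of these samples alone and may be technical in origin. With 1 group no test between conditions was possible, and all comparisons below are descriptions.

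A myosin motor consists of heavy chains that carry the ATPase head and of light chains that wrap around the lever arm next to it. Each heavy chain binds an essential light chain, which stiffens the lever, and a regulatory light chain, whose phosphorylation by light chain kinases tunes force and speed. In the heart the atria and the ventricles use different isoforms. Myl4 (essential) and Myl7 (regulatory) are the atrial chains, and Myl3 (essential) and Myl2 (regulatory) are the ventricular chains, both of which also serve slow skeletal muscle. Myl1 is the essential chain of fast skeletal muscle and is made in a long and a short form from separate promoters. Myl6 (essential) and Myl9 (regulatory) serve smooth muscle and non-muscle myosin.

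Each deposited peak is 150 bp long and carries a value assigned by the authors. Replicate 1 had 164657 peaks with a median value of 36 and replicate 2 had 144708 with a median of 35. A promoter peak is one whose centre lies within 500 bp of any annotated transcription start site (TSS) of the gene. A hotspot is a wider region of raised cutting with a −log10 q-value from the authors. What the peak value measures is not stated. If it is openness, a lower one in bulk tissue can reflect fewer cells with the site open or a weaker site in each cell. These cannot be told apart. The value also did not always run with the hotspot q-value. A site downstream of Myl4, at chr11:104614216-104614365, had values of 16 and 8 in hotspots at 100 and 5.40. An intronic Myl2 peak, at chr5:122109476-122109625, had 76 and 75 in hotspots at 3.13 and 2.96.

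Both libraries had a promoter peak at 5 of the 7 light chain genes, namely Myl2, Myl3, Myl4, Myl6 and Myl9. Over all protein-coding genes the share was 63.7%, so 5 of 7 is near the background. Myl7 was the only one of the 7 without a promoter peak in either library, a state found for 32.5% of protein-coding genes. Myl1 had promoter peaks in replicate 1 alone. The annotated 5′ end of the gene lay inside a hotspot in both libraries at 4 of the 7 genes, Myl2, Myl4, Myl6 and Myl9, against 51.6% of protein-coding genes. Counting instead the TSS of the principal transcript, the one ranked first by the annotation, added Myl3 and gave 5.

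The highest promoter values of these 5 genes lay between 77 and 106. Myl6 reached 106 in replicate 1 and 99 in replicate 2 (mean 102.5 ± 4.95, SD, n = 2). Myl2 reached 104 and 89 (96.5 ± 10.6, SD, n = 2). Myl4 reached 98 and 90 (94.0 ± 5.66, SD, n = 2). Myl3 reached 101 and 85 (93.0 ± 11.3, SD, n = 2). Myl9 was lowest at 80 and 77 (78.5 ± 2.12, SD, n = 2). Myl2, Myl4 and Myl3 overlapped in their values and could not be put in an order beyond the spread between libraries. Within each library Myl2 was above Myl3, while Myl4 was below both in replicate 1 and above both in replicate 2. Myl6 was highest in each library, but its values overlapped those of Myl2 and Myl3 and lay apart from those of Myl4. Both values of Myl9 lay below all values of those 4 genes. Among the highest promoter peaks of all genes that had one, the median was 88 in replicate 1 and 84 in replicate 2. Myl6 stood at percentile 75.8 and 71.5 of that distribution and Myl9 at 40.7 and 41.2.

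**Figure D1:**
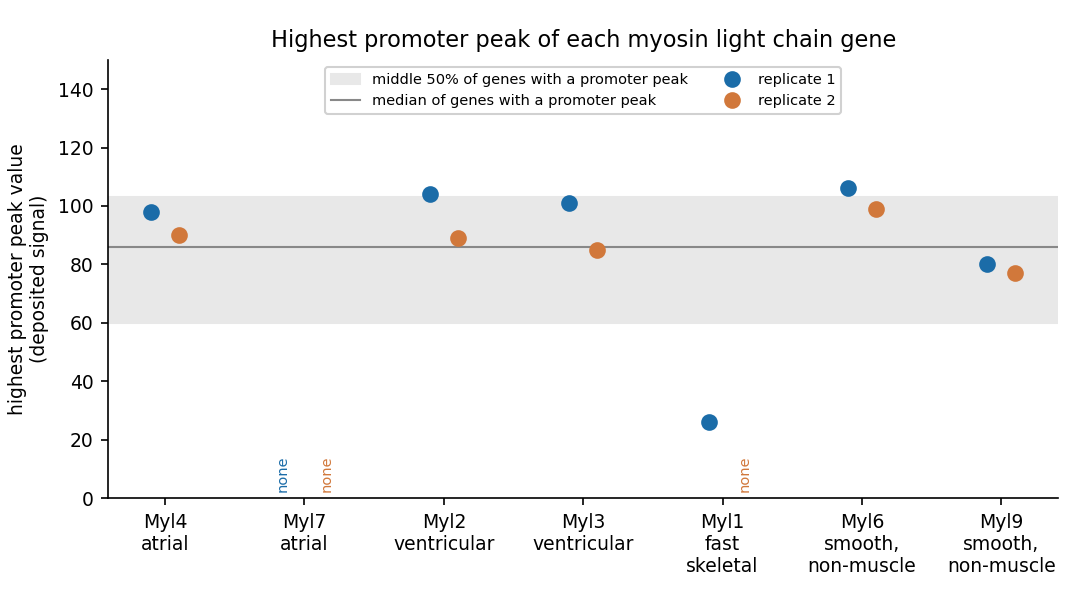
Highest promoter peak value of each light chain gene (y axis, deposited signal) in replicate 1 (blue) and replicate 2 (orange), with "none" where the library had no promoter peak. The grey band and line are the quartiles and median over all protein-coding genes with a promoter peak, averaged over both libraries. Myl4, Myl2, Myl3 and Myl6 lie between 85 and 106, Myl9 at 80 and 77, Myl1 at 26 in replicate 1, and Myl7 has none.

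The DNA in front of the principal TSS is shown for Myl2, Myl3 and Myl7, because the presence of a peak separates Myl2 and Myl3 from Myl7 there. Each line gives up to 150 bp before the start, 5′ to 3′ on the strand of the gene, read from the GRCm38.p6 reference of RefSeq, whose primary chromosomes are those of mm10. The first is the ventricular Myl2 (chr5:122100801-122100950, plus strand) and the second the ventricular Myl3 (chr9:110763496-110763645, plus strand). The third is the atrial Myl7 (chr11:5898783-5898932, minus strand). The last is the start of the Myl4 transcript Myl4-203 (chr11:104576835-104576984, plus strand), which also lacked a peak. It lies 26322 bp downstream of the principal Myl4 start, which had a peak in both libraries but is shared with Cdc27 and is not printed. Capitals mark matches to motifs named below.
Myl2: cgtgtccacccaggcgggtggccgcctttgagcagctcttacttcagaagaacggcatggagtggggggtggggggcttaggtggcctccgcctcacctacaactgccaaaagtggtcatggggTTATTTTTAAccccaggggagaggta
Myl3: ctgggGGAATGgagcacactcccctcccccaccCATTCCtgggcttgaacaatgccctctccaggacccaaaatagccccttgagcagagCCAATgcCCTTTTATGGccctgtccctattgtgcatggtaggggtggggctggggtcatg
Myl7: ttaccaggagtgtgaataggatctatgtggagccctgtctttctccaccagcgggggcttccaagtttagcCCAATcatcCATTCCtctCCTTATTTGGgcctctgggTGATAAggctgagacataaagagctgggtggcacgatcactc
Myl4-203: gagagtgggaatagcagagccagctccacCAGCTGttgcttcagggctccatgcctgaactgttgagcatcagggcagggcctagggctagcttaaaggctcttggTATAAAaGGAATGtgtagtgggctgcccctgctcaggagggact

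A set of 12 motifs was searched on both strands, each match being a description of the letters and not a shown site of binding. The core promoter elements were the TATA box, read as the letters TATAAA, the CCAAT box and the GC box, read as GGGCGG. For GATA factors the letters were AGATAA with the variant AGATAG and the same pair beginning with T. For TEAD factors they were GGAATG, for Nkx2-5 they were TNAAGTG, and for T-box factors they were AGGTGTGA. The E-box was CAGCTG, the AP-1 motif was TGANTCA, and the motif of estrogen-related receptors was TNAAGGTCA. The CArG box of serum response factor and the MEF2 site completed the set. The TATA box and the MEF2 site can overlap in AT-rich DNA. A CArG box stood before the principal TSS of Myl3 (from −53 to −44 relative to the TSS), Myl7 (from −61 to −52) and Myl9 (from −117 to −108), which is 3 of the 7 genes. The CArG box occurred in 0.822% of the 150 bp windows before the principal TSS of all 21911 protein-coding genes. So Myl7 carried this motif at about the distance of Myl3, and Myl3 had a peak over it in both libraries while Myl7 had none in either.

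Other matches differed between the chains. The window of Myl7 also held a CCAAT box, a TEAD match from −70 to −65 and a GATA match from −42 to −37. Myl3 held a CCAAT box, from −60 to −56, and a pair of TEAD matches. Myl2 held a MEF2 site from −26 to −17 and none of the other 11 motifs was found in its window. Among all genes, 26.3% of windows held a CCAAT box, 6.45% a TEAD match, 14.4% a GATA match and 1.48% a MEF2 site. The window of Myl4-203 held a TATA box from −44 to −39, a TEAD match and an E-box, which 7.70%, 6.45% and 7.75% of all windows held. None of the motifs was found in the window of the principal Myl4 start.

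Myl2, the ventricular regulatory chain, lies on chromosome 5 from 122100951 to 122113472 on the plus strand (ENSMUSG00000013936.12). Its promoter peak lay at chr5:122100776-122100925 in replicate 1 and at chr5:122100796-122100945 in replicate 2, in intergenic DNA ending just before the TSS. In both libraries the peak lay in a hotspot that also held the TSS. A second promoter peak, at chr5:122102676-122102825 in replicate 1, had values of 75 and 57 (66.0 ± 12.7, SD, n = 2) and lay over an exon of Myl2 near the starts of the processed transcripts Myl2-204 and Myl2-210. Of the 12 TSSs of Myl2, 8 had a peak within 500 bp in both libraries.

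A group of strong peaks also lay upstream of the annotated start of Myl2. A peak 7921 bp upstream, at chr5:122092956-122093105 in replicate 1, had values of 108 and 87 (97.5 ± 14.8, SD, n = 2), in the range of the promoter itself. A peak 6261 bp upstream, at chr5:122094616-122094765 in both libraries, had 93 and 90 (91.5 ± 2.12, SD, n = 2). A peak 11861 bp upstream had 75 and 73 (74.0 ± 1.41, SD, n = 2), and one at −29801 bp had 94 and 78 (86.0 ± 11.3, SD, n = 2). All 4 were intergenic in GENCODE vM21 and were found in both libraries. The one at −29801 bp lay nearer to a start of Cux2, at 21048 bp. To which gene these peaks belong was not tested.

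The annotation used changed what the nearer of these sites were. RefSeq lists Myl2 transcripts that start at 122092724 and 122093189, which is 8227 and 7762 bp before the GENCODE start, and the peak with 108 and 87 lies within 500 bp of both. In RefSeq that peak lies almost wholly within the first, untranslated exon of such a transcript, and the peak with 93 and 90 overlaps a later untranslated exon. The rule based on GENCODE therefore counted both as distal, where RefSeq would make the one with 108 and 87 a promoter peak. The peak 11861 bp upstream, at chr5:122089016-122089165, is intergenic in GENCODE vM21 and lies before both of these RefSeq starts of Myl2. Its sequence is shown because it is the nearest strong upstream site that both annotations place outside Myl2. It held none of the 12 motifs.
Myl2 upstream site: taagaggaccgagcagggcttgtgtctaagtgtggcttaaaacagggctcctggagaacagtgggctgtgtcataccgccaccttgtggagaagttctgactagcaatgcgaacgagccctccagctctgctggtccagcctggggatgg

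Inside Myl2, replicate 1 alone had a peak of 77 at chr5:122109816-122109965, in an intron shared with the overlapping gene Ccdc63. It had the highest value of all sites found in a single library around the 7 genes. A neighbouring intronic peak at chr5:122109476-122109625 was found in both libraries, with 76 and 75 (75.5 ± 0.707, SD, n = 2).

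Myl3, the ventricular essential chain, lies on chromosome 9 from 110741861 to 110769798 on the plus strand (ENSMUSG00000059741.13). Its annotated 5′ end belongs to the transcript Myl3-205, and no peak of either library lay within 500 bp of it. The promoter peaks lay at internal starts. The strongest, at chr9:110763536-110763685 in replicate 1 and chr9:110763496-110763645 in replicate 2, covered the DNA at the start of the principal transcript Myl3-201, which is 21785 bp downstream of the 5′ end. Another pair lay close to the starts of Myl3-202 and Myl3-203, both in an intron. The first, at chr9:110765676-110765825 in replicate 1, had 81 and 58 (69.5 ± 16.3, SD, n = 2). The second, at chr9:110765996-110766145 in both, had 94 and 76 (85.0 ± 12.7, SD, n = 2).

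Of the promoter peaks found in both libraries, read at their place in replicate 1, the Myl3 intron peak with 81 and 58 was the only one that held a match to the motif of estrogen-related receptors, factors that drive genes of oxidative metabolism. It held a MEF2 site as well, and its sequence (chr9:110765676-110765825, plus strand) is printed for that reason. In replicate 2 the peak began at 110765736, inside the match to the receptor motif, and so held only part of that match. Of all promoter peaks of replicate 1, 0.559% held the first motif and 1.44% the second.
Myl3 intron peak: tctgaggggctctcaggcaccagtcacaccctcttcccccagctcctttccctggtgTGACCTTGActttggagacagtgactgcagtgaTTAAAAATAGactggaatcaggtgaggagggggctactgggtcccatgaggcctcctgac

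The strongest distal site of Myl3, more than 1 kb from every TSS of any gene, lay at chr9:110732716-110732865 in both libraries with values of 100 and 99 (99.5 ± 0.707, SD, n = 2). It lies in an intron of the neighbouring gene Pth1r, which encodes the receptor of parathyroid hormone, 9071 bp upstream of the 5′ end of Myl3. This is at −30856 bp from the principal TSS. It was 1 unit below the Myl3 promoter in replicate 1 and above it in replicate 2. Its GC content was 68.7%, and it held 3 GC boxes and an E-box, whereas 5.18% of the distal peaks of replicate 1 held a GC box. To which gene the site belongs was not tested.
Myl3 distal site: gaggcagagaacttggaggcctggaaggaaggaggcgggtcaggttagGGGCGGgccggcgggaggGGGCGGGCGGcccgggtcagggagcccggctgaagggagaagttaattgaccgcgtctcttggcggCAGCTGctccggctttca

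Myl4, the atrial essential chain, lies on chromosome 11 from 104550663 to 104595753 on the plus strand (ENSMUSG00000061086.12). Its strongest promoter peak, with 98 and 90, lay at chr11:104550516-104550665 in replicate 1 and chr11:104550556-104550705 in replicate 2. This start is within 500 bp of that of Cdc27, a subunit of the anaphase-promoting complex that runs in the other direction, and the peak cannot be assigned to either gene. The transcripts Myl4-207, Myl4-203, Myl4-205 and Myl4-202 start from 24783 to 26618 bp downstream, away from Cdc27. None of these 4 starts had a peak within 500 bp in either library. The nearest peak lay 989 bp downstream of the Myl4-202 start, in an intron at chr11:104578196-104578345, with 64 and 48 (56.0 ± 11.3, SD, n = 2).

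Peaks near the further Myl4 starts were of intermediate value. A peak at the retained intron transcript Myl4-204 had 56 and 46 (51.0 ± 7.07, SD, n = 2). Near Myl4-208 a peak had 57 and 34 (45.5 ± 16.3, SD, n = 2), and replicate 2 alone had a separate peak of 39. The strongest site away from any start was intronic, at chr11:104561096-104561245 in replicate 1, with 87 and 74 (80.5 ± 9.19, SD, n = 2). Its sequence is shown as the strongest distal site of an atrial chain within its own gene. It held an E-box and an AP-1 motif, which 13.8% and 8.30% of the distal peaks of replicate 1 held.
Myl4 intron peak: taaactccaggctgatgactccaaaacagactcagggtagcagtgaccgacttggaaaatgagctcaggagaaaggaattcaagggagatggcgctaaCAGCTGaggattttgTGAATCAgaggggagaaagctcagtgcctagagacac

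Myl7, the atrial regulatory chain, lies on chromosome 11 from 5896637 to 5898782 on the minus strand (ENSMUSG00000020469.8) and has 1 annotated transcript. No peak lay within 500 bp of its TSS and no hotspot covered the TSS in either library. The nearest peak in replicate 1 lay 1012 bp downstream, in an intron at chr11:5897696-5897845, with the low value 33, and replicate 2 had none in the gene. Hotspots covered 3.82% of Myl7 in replicate 1 and 0% in replicate 2. The strongest peak within 50 kb, with 117 and 106, lay at the promoter of Pold2, a subunit of DNA polymerase delta.

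The atrial and ventricular chains thus differed in the peaks at protein-coding starts that belong to a single gene. Both ventricular genes had such peaks, of 104 and 89 at Myl2 and 101 and 85 at Myl3. Neither atrial gene had one at a protein-coding start, apart from the Myl4 start shared with Cdc27. That shared start is the principal one of Myl4 and the one listed by RefSeq. Its peak of 98 and 90 lay in the range of the ventricular genes. Myl4 also had peaks in both libraries at starts of retained intron transcripts not shared with another gene. These had 56 and 46 at Myl4-204 and 57 and 34 near Myl4-208. The contrast therefore holds only for protein-coding starts and with the start shared with Cdc27 set aside. With 2 genes in each class the comparison is a description of 4 genes, and the share of atrial and ventricular cells in the tissue was not measured.

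**Figure D2:**
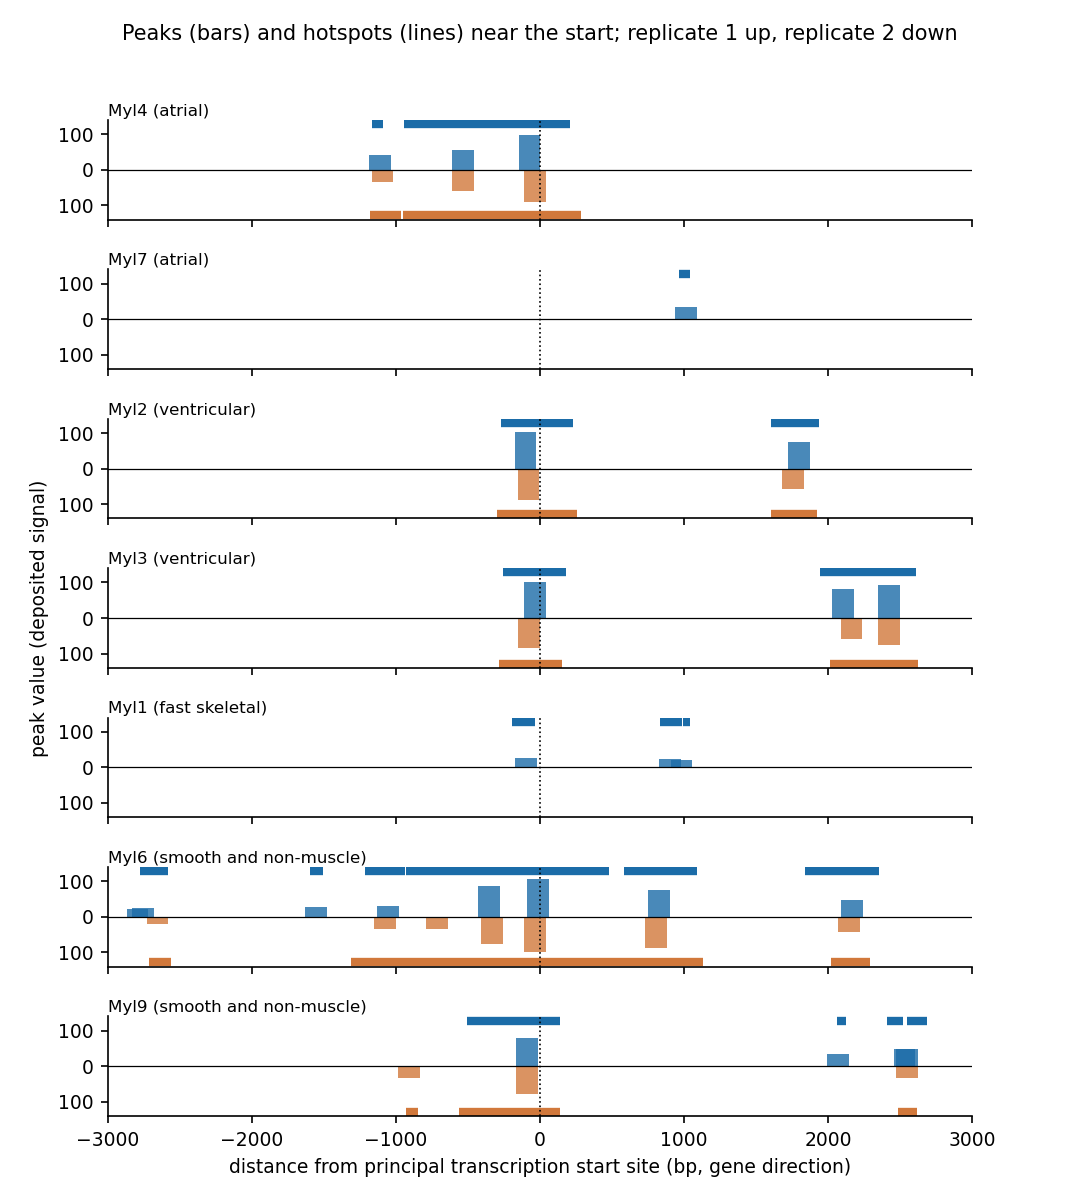
Peaks (bars, height in deposited signal) and hotspots (lines at the edge of each panel) within 3 kb of the principal TSS (dotted line), with replicate 1 above the axis in blue and replicate 2 below it in orange. The x axis is the distance in bp in the direction of the gene. Myl2, Myl3, Myl4, Myl6 and Myl9 have a peak and a hotspot at the start in both libraries, Myl1 has 3 low peaks with hotspots in replicate 1, and Myl7 has a peak of 33 and a hotspot about 1 kb inside the gene in replicate 1.

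Myl1, the fast skeletal essential chain, lies on chromosome 1 from 66924295 to 66945404 on the minus strand (ENSMUSG00000061816.15). Its upstream starts, at 66945404, 66945384 and 66945143, had no peak within 500 bp in either library. The starts near 66935354, that of the principal transcript Myl1-202, had a peak of 26 at chr1:66935376-66935525 in replicate 1. Overlapping peaks of 24 and 22 followed at chr1:66934376-66934525 and chr1:66934296-66934445, near the start of Myl1-208. All 3 lay in introns of the gene. None of these was found in replicate 2, and 26 stood at percentile 3.62 of the genes' highest promoter peaks in replicate 1.

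Stronger sites lay between the starts of the long and the short transcripts of Myl1. An intronic peak at chr1:66940116-66940265 in both libraries had 62 and 60 (61.0 ± 1.41, SD, n = 2), and another at chr1:66941036-66941185 in replicate 1 had 50 and 55 (52.5 ± 3.54, SD, n = 2). The first is printed because it was the strongest site inside Myl1, none of whose starts had a peak in both libraries. It held a GATA, a TEAD and a MEF2 motif, which 25.3%, 12.0% and 4.86% of the distal peaks of replicate 1 held. The strongest site around the gene lay 49054 bp downstream of the 5′ end, beyond the end of the gene, at chr1:66896276-66896425 in replicate 1, with 80 in both libraries.
Myl1 intron peak: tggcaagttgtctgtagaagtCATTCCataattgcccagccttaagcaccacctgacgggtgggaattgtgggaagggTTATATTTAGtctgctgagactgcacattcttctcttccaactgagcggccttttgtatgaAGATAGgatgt

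Myl6, the essential chain of smooth muscle and non-muscle myosin, lies on chromosome 10 from 128490860 to 128494145 on the minus strand (ENSMUSG00000090841.2). All 13 of its TSSs had a peak within 500 bp and lay in a hotspot in both libraries, which held for no other gene of the 7. The strongest peak lay at chr10:128493816-128493965 in replicate 1 and chr10:128493836-128493985 in replicate 2, and its centre fell in an exon of Myl6 in the former and in an intron in the latter. A peak at chr10:128494156-128494305 in replicate 1, just upstream of the gene and over an exon of the neighbouring light chain gene Myl6b, had 86 and 77 (81.5 ± 6.36, SD, n = 2). A further promoter peak, inside the gene at chr10:128492976-128493125, was higher in replicate 2, with 74 and 88 (81.0 ± 9.90, SD, n = 2). It held a CArG box, from 816 to 825 bp after the principal TSS. Hotspots covered 54.1% and 51.1% of Myl6, against at most 10.6% of any other of the 7 genes.

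Myl9, the regulatory chain of smooth muscle, lies on chromosome 2 from 156775420 to 156781658 on the plus strand (ENSMUSG00000067818.6). Its promoter peak lay at chr2:156775256-156775405 in both libraries, in intergenic DNA 90 bp before the TSS. The strongest site elsewhere, with 76 in both libraries, lay at chr2:156737036-156737185, at −38310 bp. GENCODE vM21 places its centre in an intron of the neighbouring gene Dlgap4, whereas RefSeq lists untranslated exon sequence there. The sequences before the Myl9 start (chr2:156775270-156775407, plus strand) and the Myl6 start (chr10:128493887-128494025, minus strand) are given for comparison with the cardiac chains, cut where annotated untranslated sequence begins. Myl9 held a CArG box and GC boxes, and Myl6 a CCAAT box. GC boxes occurred in 37.1% of all windows before principal TSSs.
Myl9: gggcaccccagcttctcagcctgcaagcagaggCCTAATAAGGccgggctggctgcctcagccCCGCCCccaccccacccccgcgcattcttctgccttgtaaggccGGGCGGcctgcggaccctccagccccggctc
Myl6: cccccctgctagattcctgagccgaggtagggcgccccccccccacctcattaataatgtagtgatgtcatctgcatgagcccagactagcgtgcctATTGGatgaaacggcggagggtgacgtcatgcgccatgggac

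Among all protein-coding genes, promoter peaks present in both libraries rose in frequency from 7.94% in the lowest decile of CpG content to 96.6% in the highest, so each light chain gene was placed among all protein-coding genes by the ratio of observed to expected CpG within 500 bp of the principal TSS. Myl2 had a ratio of 0.139 and fell in decile 2 of the genes, counted from the lowest, where both libraries had a promoter peak at 17.7%. Myl3, at 0.196, Myl7, at 0.219, and Myl1, at 0.227, fell in decile 3, where the share was 28.1%. Myl9, at 0.360, fell in decile 4, where it was 46.7%. Myl6, at 0.554, fell in decile 5, where it was 72.4%, and Myl4, at 0.729, in decile 7, where it was 91.7%. Thus Myl3, which had a promoter peak in both libraries, and Myl7 and Myl1, which did not, had similar CpG ratios. The Myl4 window includes the start of Cdc27.

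**Figure D3:**
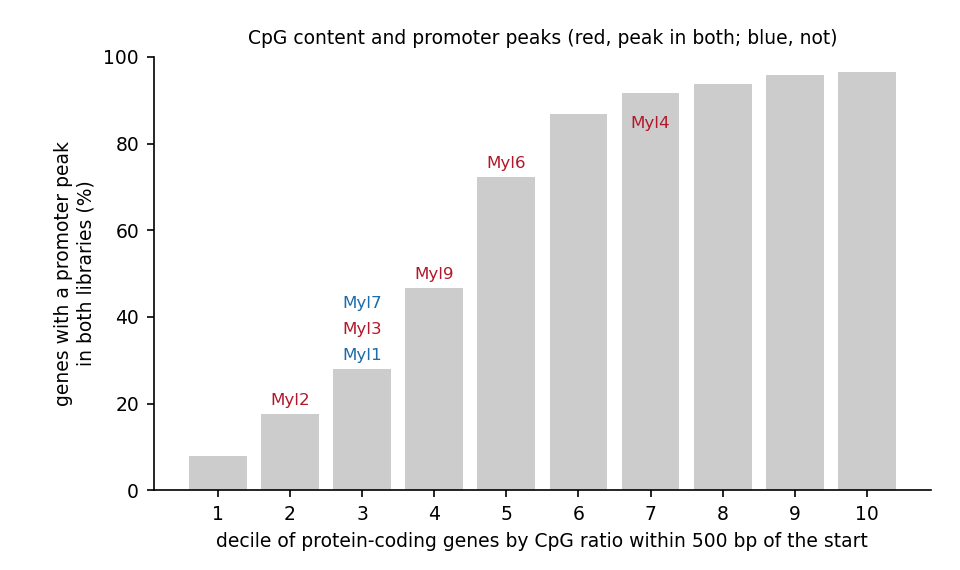
Share of protein-coding genes with a promoter peak in both libraries (y axis, %) in each decile of genes by CpG ratio around the principal TSS (x axis, lowest to highest). The light chain genes are written above their decile, or within the bar for Myl4, in red where the gene had a promoter peak in both libraries and in blue where it did not. Myl2 lies in a decile where 17.7% of genes had one, and Myl7, Myl3 and Myl1 share a decile at 28.1%.

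Within the genes and 50 kb on each side there were 136 peaks in replicate 1 and 132 in replicate 2. Myl2 had 26 in each library, Myl6 24 and 23, Myl4 21 and 23, Myl9 19 and 19, Myl3 13 and 18, Myl1 18 and 13, and Myl7 15 and 10. The regions differ in length, and per 100 kb Myl2 had 23.1 in both libraries and Myl6 22.8 ± 0.685 (SD, n = 2). Myl9 had 17.9 in both, and Myl4 had 15.2 ± 0.975 (SD, n = 2). Myl1 had 12.8 ± 2.92, Myl7 12.2 ± 3.46 and Myl3 12.1 ± 2.76 (SD, n = 2 each). Myl2 and Myl6 did not differ beyond their spread, and neither did Myl1, Myl7 and Myl3 among themselves. The median over all protein-coding genes was 10.4 in replicate 1 and 9.28 in replicate 2. Myl2 stood at percentile 93.2 and 95.7, and Myl7 at 71.2 and 53.0.

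The composition of these counts differed too. Of the peaks around Myl6, 10 in replicate 1 and 12 in replicate 2 lay at promoters of other genes, among them Esyt1 with 136 and 125 and Myl6b with 118 and 119. Around Myl2, 18 in each library were distal. Around Myl9 and Myl1 no peak of either library lay at the promoter of another gene.

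**Figure D4:**
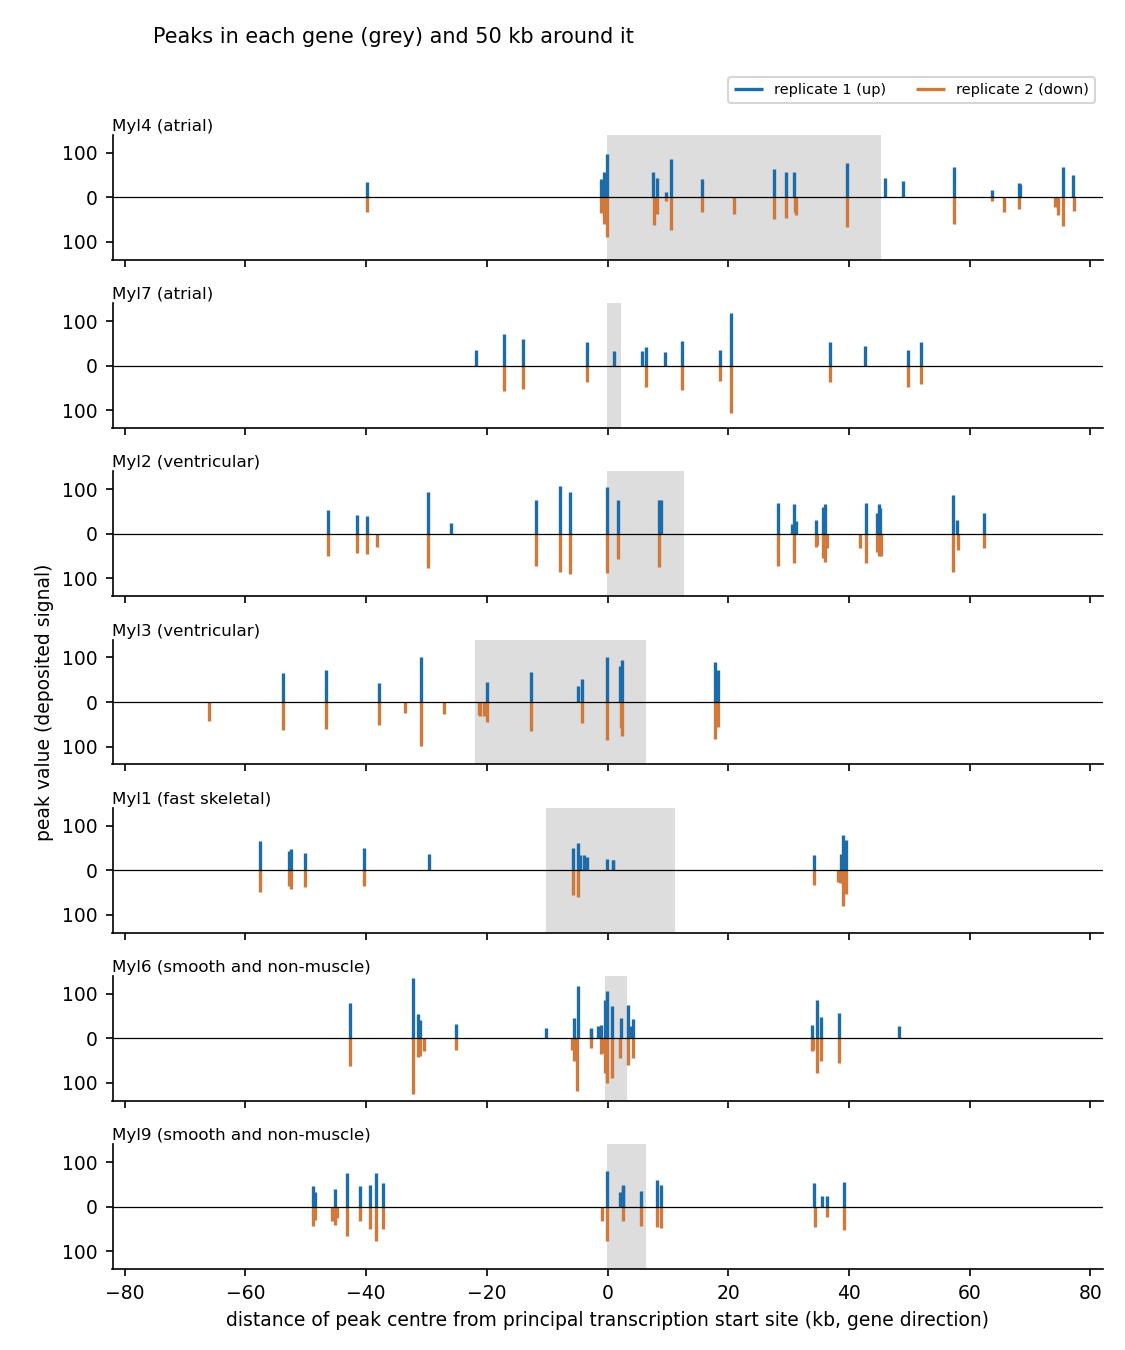
All peaks in each light chain gene (grey) and within 50 kb of it, by distance in kb from the principal TSS in the direction of the gene (x axis), with the deposited signal as height (y axis), replicate 1 upward in blue and replicate 2 downward in orange. Myl2 shows a row of high peaks at and before its start, Myl7 its highest peak at the Pold2 promoter (117 and 106), and Myl9 a group upstream in Dlgap4.

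Peaks were paired between libraries so that each had at most 1 partner. Counted as sites there were 161, of which 107 were found in both, 29 in replicate 1 alone and 25 in replicate 2 alone. Counting any overlap of at least 1 bp instead, so that a peak may be matched more than once, 109 of the 136 peaks of replicate 1 (80.1%) and 108 of the 132 of replicate 2 (81.8%) overlapped a peak of the other library. Over the genome these shares were 70.1% and 79.8%. The sites found in both had a median value of 52.5, and those of a single library 31.0 and 30.0. Of the 107 shared sites, 83 were lower in replicate 2, 19 were higher and 5 were equal. On the log2 scale the median ratio (replicate 2 over replicate 1) was −0.13 at these sites and −0.14 over 113417 pairs in the genome, so the offset around the light chain genes was that of the libraries as a whole. All 5 highest promoter values named above were lower in replicate 2. Besides the Myl2 intron peak of 77, the highest single-library sites were low to intermediate. They had 51 near Myl4, 49 in Myl9 and 45 near Myl7 in replicate 1, all without a paired peak in replicate 2. The one of Myl9 overlaps another replicate 1 peak that has the partner. At the one near Myl4 the hotspots of both libraries overlapped, and replicate 2 had a separate peak of 30 close by, at chr11:104627916-104628065. The highest around Myl1 had 36 and was in replicate 1, and the highest around Myl3 and Myl6 had 42 and 33 and were in replicate 2. Single-library sites were unevenly spread. Myl7 had 5 in replicate 1 and none in replicate 2, and Myl3 had 1 in replicate 1 and 6 in replicate 2.

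**Figure D5:**
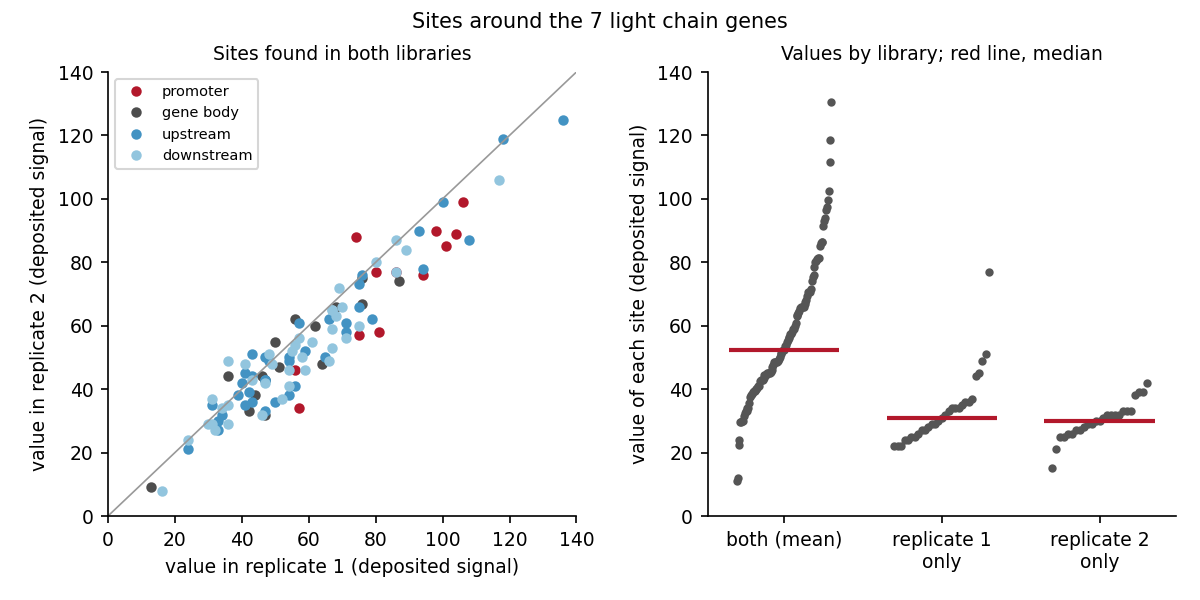
Left, values of the 107 sites found in both libraries in replicate 1 (x axis) and replicate 2 (y axis), in deposited signal, with the line of equality and colours for promoter, gene body, upstream and downstream sites. Right, value of every site by the library that held it, with the median as a red line at 52.5, 31.0 and 30.0. Most shared sites lie below the line, and sites of a single library are mostly low.

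In the distal peaks around the 7 genes, 90 in replicate 1 and 80 in replicate 2, motif shares were set beside those of all distal peaks. Of the 12 motifs, 5 were above the share of all distal peaks in each library, 5 were below it in each, and the GATA and CCAAT motifs differed in sign between libraries. Above were TEAD, with 17.8% and 15.0% against 12.0% and 12.4%, and the E-box, with 18.9% and 16.3% against 13.8% and 14.2%. The GC box, with 6.67% and 8.75% against 5.18% and 5.49%, the motif of estrogen-related receptors and the CArG box were also above, the latter pair with at most 3 peaks each in a library. Below were AP-1, with 3.33% and 5.00% against 8.30% and 8.36%, the TATA box, Nkx2-5, the MEF2 site and the T-box motif, which was in none of the peaks. A GATA match was held by 30.0% and 22.5%, against 25.3% and 24.5%. These shares rest on few peaks, 16 and 12 for TEAD and 3 and 4 for AP-1, and the differences were not tested.

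The other genes of the myosin system were counted from lists chosen by function, to be read against the 63.7% of all protein-coding genes. A promoter peak was present in both libraries at 4 of 5 other light chain genes. Mylpf, the regulatory chain of fast skeletal muscle, reached 132 and 125, at a start shared with Tbc1d10b, and Myl6b reached 118 and 119, while Myl10 had none. Myl12a and Myl12b share a start and so count the same peak, of 116 and 110. Of 11 genes of light chain kinases and phosphatases, 10 had one. Ppp1cb, the catalytic subunit of myosin phosphatase, reached 124 and 125, and Dapk3, a kinase of regulatory light chains, 126 and 113. Mylk2, the kinase of skeletal muscle, had none. Of 12 heavy chain genes, 8 had one, which is near the background. The non-muscle chains Myh9, at 133 and 122, and Myh10, at 127 and 119, were highest. Myh1, Myh2, Myh3 and Myh4, which are chains of adult fast and of embryonic skeletal muscle, had none.

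Markers of cell types in heart and of cell types foreign to it were read in the same way, again beside the 63.7% of protein-coding genes with a promoter peak in both libraries and the 32.5% with none. Both libraries held a promoter peak at 8 of 8 cardiomyocyte markers, 6 of 6 fibroblast, 5 of 5 endothelial and 4 of 6 smooth muscle markers. The median values of these were 109.5 and 101.0 for cardiomyocyte and 77.5 and 74.0 for smooth muscle markers. They were lower for fibroblast markers, at 51.5 and 50.5, and endothelial markers, at 58.0 and 63.0. Of the 5 macrophage and blood markers and the 4 liver markers none had a promoter peak in either library. Of 3 neuron markers, Snap25, at 41 and 42, and Syt1, at 25 and 28, had low promoter peaks in both, and Neurod1 had one of 16 in replicate 2. The lowest fibroblast marker, Postn, at 41 and 36, and the lowest endothelial marker, Tek, at 46 and 35, were near Snap25. Of 10 skeletal muscle markers 3 had a promoter peak in both, the highest being Myog at 38 and 36, and Myod1, Myf5, Myf6, Tnnt3, Tnni2, Myh3 and Pax7 had none. Of 9 atrial markers, 6 had a promoter peak in both libraries, with median values of 50 and 48. Nppa was highest, at 63 and 53, and Sln, Bmp10 and Nr2f2 had none. Of 8 ventricular markers, 7 had one, with medians of 93 and 88. By the mean percentile over both libraries Lbh, at 106 and 101, and Hey2, at 104 and 95, were highest, although Pln had 109 in replicate 1 and 88 in replicate 2. Irx4 had none. The part of these markers' cells in the difference between atrial and ventricular light chain genes was not tested.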

How the data were processed

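Per the labels, DNase-seq libraries of 2 heart samples were mapped to mm10. The authors deposited, for each library, 150 bp peaks with 1 signal value each, with no unit or scaling stated, and hotspots with a −log10 q-value, listed up to 100. The labels mark the series as superseded by a newer deposit, not used here. The names of the aligner and the caller were not given in the sources used here, nor was the threshold, at which weak sites enter or leave a list. No read totals are given, so the depth is unknown.

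Genes and TSSs came from GENCODE vM21. A promoter peak has its centre within 500 bp of a TSS, a distal peak over 1 kb from every TSS, and peaks overlapping by at least 1 bp made a shared site. Percentiles of promoter values compare a gene with the protein-coding genes that had a promoter peak in the same library. Those of peaks per 100 kb compare it with all protein-coding genes. Python 3.11.15, pandas 2.3.3, numpy 2.4.6 and pysam 0.24.0 were used, and gene assignment and motif search were tested on simulated data. The 7 genes, the lists and the motifs were chosen with earlier results of these data known. Named beside the 7 genes were, per list of the myosin system, the members without a promoter peak and the 2 highest. For the marker lists only some of these members were named. Per gene, its promoter peaks, its highest other site and its highest single-library site were named. The remaining sites and list members named were chosen after their values were seen. Alternatives for windows, flanks, overlap, peak strength and left-out libraries were tried. Some sites near Myl7 are not reported here. No test was run.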

Additional observations from a re-analysis of the deposited data

How the results depend on the processing

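A promoter peak in both libraries was found at 5 of the 7 genes with windows of 250, 500 and 1000 bp, with any peak base counted and with the stronger peaks only. The count was 4, losing Myl3, when the annotated 5′ end alone was used. It ranged from 5 to 6 when a library was left out, where replicate 1 alone added Myl1. The mean number of peaks around the genes was 134.0 with flanks of 50 kb, 81.5 with 25 kb and 243.5 with 100 kb, as the shorter and longer regions imply. The share of peaks found in both libraries, 81.0%, was 76.5% with an overlap of at least 75 bp, 89.9% among the stronger peaks, 78.8% with 25 kb flanks and 79.1% with 100 kb flanks. The median of the 5 genes' highest promoter values, 95.0, lay between 89.0 and 101.0 when a library was left out and was 91.5 for the peak nearest the 5′ end. The count of 5′ ends in hotspots in both libraries, 4, was the same for hotspots at the highest listed value. Counting the principal TSS alone, a choice made after seeing the data, gave 5 genes with a promoter peak and 5 in a hotspot. No paired analysis was possible because there is 1 group. Unknown depth, 2 libraries of the same donor label and a value with no stated scaling limit all comparisons between libraries.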

Other observations

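Among the cardiomyocyte markers, Tnnt2, which encodes cardiac troponin T, differed most between the libraries in the number of peaks inside the gene, with 32 in replicate 1 and 1 in replicate 2. At Gata4, a cardiac transcription factor gene, the order was the other way, with 24 and 41. No light chain gene showed a difference of that size, the largest being 8 and 2 in Myl1. These genes were singled out after their values were seen.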
